A study of Mus musculus with 2 samples.

Results

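The S100 proteins are small calcium-binding proteins that work without enzymatic activity of their own. Most form dimers, open a binding face when calcium occupies their EF-hand loops, and then dock onto target proteins such as annexins, cytoskeletal proteins or ion channels. Some are also released from cells. S100a8 and S100a9 together form calprotectin, a metal-binding antimicrobial protein of neutrophils and monocytes whose level in stool is used as a measure of gut inflammation. In the mouse most S100 genes sit on chromosome 3 beside the epidermal differentiation complex, a cluster of genes for the outer layers of skin.

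The 10 S100 genes described here, of 40879 gene symbols in all, are S100a1, S100a3, S100a4, S100a6, S100a8, S100a9, S100a10, S100a11, S100a14 and S100a16, each taken by its exact symbol from the count files. The symbols had been chosen by earlier results of these same read counts, so their levels and differences are a description and carry no test. The study compared intestine of ERAP1 wild-type mice (WT) with that of mice heterozygous for a deletion of Erap1 (ERAP1+/-), a gene for an aminopeptidase that trims peptides for antigen presentation in the endoplasmic reticulum. All mice were of the C57BL/6 background. The methods give 8 weeks as their age when they were assigned to groups, with tissue taken after the weeks of the experiment. No age at sampling is stated for the sequenced mice. The methods also call them germ-free animals kept under specific pathogen-free housing. The deletion allele came from the ERAP1 tm1a (EUCOMM)Wtsi embryonic stem cell clone, in which loxP sites flank exons 6 and 7, crossed with a Cre strain that the methods do not name further, and the labels name no treatment, sex or segment of the gut. The study also had arms given dextran sulfate sodium, with or without sulfasalazine. The paper places the sequenced comparison under steady-state conditions. Its abstract calls the sequenced tissue colonic, and its methods call it intestine. RNA of 3 mice was pooled into 1 library per genotype, so that no difference below has a replicate check, and no p-value is given.

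The libraries held 8114826 (WT) and 8907515 (ERAP1+/-) counted reads, and mitochondrial and ribosomal RNA took 18% and 16.7% of them. Levels are given as CPM, reads scaled to a common library size, after trimmed mean of M values (TMM) scaling, differences as ERAP1+/- minus WT on the log2(CPM + 1) scale, and intervals are exact 95% intervals of a ratio of reads that cover counting error only. A gene was called different where that difference passed 2-fold and the log2 level was at least 4 in 1 or both libraries. The library labelled ERAP1+/- had 2 Erap1 reads (0.215 CPM) and that labelled WT 229 (29.5 CPM). A heterozygote retains 1 intact copy, and 2 reads lie far under what that copy would give beside 229, so that the Erap1 counts go against the heterozygous label. Reads from the 3′ end also lie outside the exons between the loxP sites and do not show what was deleted. ERAP1+/- stands below for the library so labelled, and each direction rests on that label. Of the colon epithelium markers, all 14 had reads in both libraries. The WT library stands apart in also holding 2724 CPM of suprabasal epidermis markers, 208 CPM of hair markers and 1343 CPM of skeletal muscle markers, against 54.8, 0.215 and 22.3 CPM in the ERAP1+/- library. With a single WT library no value could be given without it.

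In the GENCODE M21 annotation of GRCm38 all 10 genes lie on chromosome 3. Of these, 8 stand within 185 kb, from S100a1 (90511034 to 90514392, minus strand) to S100a9 (90692632 to 90695721, minus strand). S100a11 (93520488 to 93526287) and S100a10 (93555080 to 93564643), both on the plus strand, follow after a gap of 2825 kb. The genes also share their layout. In the transcript with the longest coding sequence, 9 of the 10 have 3 exons, of which the last 2 hold the coding sequence, and S100a14 has 4 exons with 3 coding. The coding sequences are short, from 267 bp without the stop codon (89 codons) in S100a6 and S100a8 to 372 bp (124 codons) in S100a16.

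Promoter sequences from RefSeq (GRCm38.p6) were matched for 8 of the 10 genes, in 12 windows. Those of 4 genes are shown, because S100a8 and S100a9 were higher together in the ERAP1+/- library, S100a3 was much lower, and S100a11 differed little. Each is the 250 bases before an annotated start, written 5′ to 3′ on the strand of the gene. Capitals mark matches, on either strand, to TATAAA, known as the TATA box, to TGANTCA, bound by AP-1 factors, to CCAAT, or to GGGCGG, known as the GC box.
S100a8, chr3:90668821-90669070, plus strand: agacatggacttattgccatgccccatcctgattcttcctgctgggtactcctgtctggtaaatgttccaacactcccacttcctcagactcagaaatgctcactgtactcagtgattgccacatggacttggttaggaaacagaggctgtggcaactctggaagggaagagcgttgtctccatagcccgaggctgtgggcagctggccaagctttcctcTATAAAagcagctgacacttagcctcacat
S100a9, chr3:90695722-90695971, minus strand: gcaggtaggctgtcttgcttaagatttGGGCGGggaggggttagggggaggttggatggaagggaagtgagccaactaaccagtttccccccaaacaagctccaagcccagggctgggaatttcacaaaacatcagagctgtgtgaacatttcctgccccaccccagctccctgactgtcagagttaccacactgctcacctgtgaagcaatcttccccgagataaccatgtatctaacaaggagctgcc
S100a3, chr3:90599964-90600213, plus strand: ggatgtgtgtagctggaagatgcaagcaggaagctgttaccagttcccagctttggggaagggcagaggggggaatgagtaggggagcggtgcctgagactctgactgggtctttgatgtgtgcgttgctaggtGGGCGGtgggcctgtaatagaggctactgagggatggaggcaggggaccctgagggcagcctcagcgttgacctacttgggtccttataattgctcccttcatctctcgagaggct
S100a11, chr3:93520246-93520495, plus strand: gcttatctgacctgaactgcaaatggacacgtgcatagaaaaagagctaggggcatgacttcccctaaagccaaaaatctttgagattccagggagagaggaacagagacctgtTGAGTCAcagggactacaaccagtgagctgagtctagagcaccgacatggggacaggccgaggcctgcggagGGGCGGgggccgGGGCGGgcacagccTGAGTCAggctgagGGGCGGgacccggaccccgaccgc

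The TATA box of S100a8 begins 30 bases before its annotated start. In S100a9 the same letters begin at base 1 of the annotated transcript, just beyond the sequence shown, and S100a4 has them 31 bases before its start. S100a3 is annotated with 4 starts, and TATAAA occurs before another of them, 52 bases upstream of that start. Of all 32851 promoter windows of 300 bases, 13.6% hold TATAAA. S100a11 holds 3 GC boxes and 2 AP-1 matches in its window, with GGGCGG in 35.7% and TGANTCA in 7.81% of all windows. AP-1 matches occur in 2 of the genes, S100a11 and S100a16. GC boxes occur in 4, which are S100a3, S100a9, S100a11 and S100a16. CCAAT, found in 37.4% of all windows, occurs before S100a6 and before a start of S100a3. These matches describe letters and not bound sites.

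S100a6, a protein also known as calcyclin, was by far the most abundant of the 10 genes, with 21864 reads from WT and 17430 from ERAP1+/- intestine. It took 58.4% (Wilson 95% interval 57.9% to 58.9%) and 59.7% (59.1% to 60.2%) of the reads of the 10 genes. By reads, the order in the WT library was S100a6, S100a10, S100a14, S100a16, S100a1, S100a11, S100a4, S100a3, S100a9 and S100a8. The libraries were made from the 3′ ends of transcripts, so that reads were not divided by gene length, and the order is one of reads per gene. In the ERAP1+/- library S100a14 (2157 reads) and S100a16 (2171 reads) had nearly the same number, and S100a3 moved from place 8 to place 10. S100a8 and S100a9 differed from each other by less than counting error in both libraries.

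**Figure D1:**
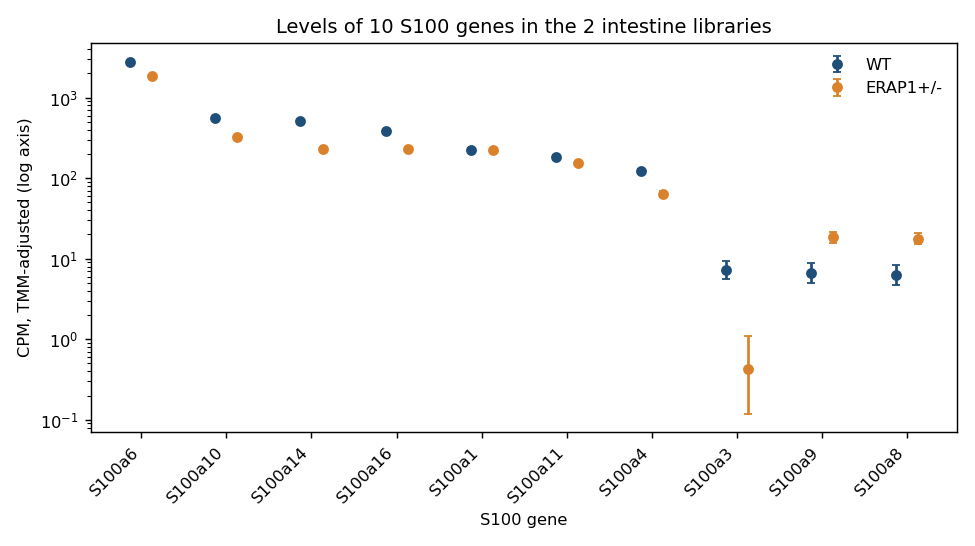
Levels of the 10 S100 genes in the WT (blue) and ERAP1+/- (orange) libraries, in TMM-adjusted CPM on a log axis, ordered by the WT level. Points are the single library of each genotype and bars are exact 95% Poisson intervals of the count. S100a6 lies at 2814 and 1874 CPM, and S100a8 and S100a9 are the only 2 of the 10 that are higher in the ERAP1+/- library.

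Summed over the 10 genes, WT gave 37464 reads (0.462% of all reads) and ERAP1+/- gave 29208 (0.328%). Of the 10, 8 were lower and 2 higher in the ERAP1+/- library, with a median log2 difference of -0.65, where the median over the 8013 genes past the level was -0.03. With scaling by the total count 7 were lower and 3 higher. The level of 4 was passed by 9 of the 10 genes, all but S100a3. Among these, S100a8 and S100a9 were more than 2-fold higher and S100a14 was more than 2-fold lower. S100a8 and S100a9 reached the level in the ERAP1+/- library alone, so that a difference was built into their passing it. Of all genes past the level, 5.34% were called in either direction, 1.39% as higher and 3.96% as lower, and since the same contrast chose the members, nothing is read from their count against that background. In these bulk samples, fewer cells of a type cannot be told apart from less RNA per cell.

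S100a8 had 49 reads in WT and 165 in ERAP1+/-, or 6.31 and 17.7 CPM. This is a ratio of 2.81 (95% interval 2.03 to 3.95) and a log2 difference of 1.36, in place 41 from the top of the 8013 genes. Its partner S100a9 had 52 and 171 reads, or 6.69 and 18.4 CPM, with a ratio of 2.75 (2.0 to 3.82) and a log2 difference of 1.33, in place 45. The members of the calprotectin pair were therefore higher side by side. Inside each library there were 0.942 S100a8 reads per S100a9 read in WT (0.625 to 1.42) and 0.965 in ERAP1+/- (0.774 to 1.2). These ratios need no scaling, and that of ERAP1+/- was 1.02 times that of WT (0.640 to 1.64). Both genes stand just past the level of 4, with log2 levels of 4.23 and 4.28 in the ERAP1+/- library, and neither is counted where a level of 6 is asked for.

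Genes of neutrophils gave no common direction beside the pair. Of the 14 neutrophil markers, 7 had higher and 6 lower values in the ERAP1+/- library and 1 had no read, with a median of 0.07, or -0.32 with counts of 0 set at 3 reads. Of these, 6 had at least 10 reads over both libraries, of which 5 were lower and 1 higher, with a median of -1.30 (-1.10 with counts of 0 set at 3 reads). Summed, the 14 markers stood at 393 CPM in WT against 156 CPM in ERAP1+/-. Most of it was Ly6g (2867 and 1367 reads, or 369 and 147 CPM), which encodes a surface antigen used to sort neutrophils. No other marker had more than 95 reads in a library. The sum therefore rests on 1 gene and is not read as a level of neutrophils. The defining granule genes were at or near 0 in both: Elane had no read in either library, Mpo 0 and 1, Ngp 0 and 1, and Camp 0 and 3. Retnlg, another gene of mature neutrophils, had 0 reads in WT and 18 in ERAP1+/-. Csf3r, the receptor for the growth factor of neutrophils, had 1 and 5 reads, the collagenase Mmp8 2 and 6, and Stfa2l1 0 and 1. Ltf (95 and 5 reads) and Lcn2 (39 and 13 reads), which encode iron-binding and iron-scavenging proteins of neutrophils and epithelia, were lower. So were Mmp9 (36 and 29 reads), Padi4 (11 and 0) and Cxcr2 (3 and 1).

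Monocytes and macrophages are another source of calprotectin. Of their 10 markers, 6 had higher and 4 lower values in the ERAP1+/- library, none by more than 2-fold past the level, and the median was 0.17. Their summed level was 219 CPM in WT and 271 CPM in ERAP1+/-. The larger positive differences were those of Lyz2, a lysozyme (146 and 296 reads, 0.73), Cd14, a co-receptor for bacterial lipopolysaccharide (114 and 218 reads, 0.64), and Csf1r, the receptor for the growth factor of macrophages (287 and 539 reads, 0.64). Itgam, an integrin of myeloid cells, was at -0.73. The part of neutrophils, monocytes and macrophages in the difference of S100a8 and S100a9 was not tested.

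Receptors described for extracellular S100 proteins were all measured. Of 8 such genes, 6 passed the level and none of them was called. Values were higher for 3 and lower for 5 of the 8, with a median of -0.10. Tlr4, a receptor of calprotectin, had 278 and 315 reads (-0.08), Ager, the receptor for advanced glycation end products, 44 and 28 (-0.73), and Bsg, the surface protein basigin, 1712 and 2337 (0.19). Emb, an adhesion protein of the basigin family, was at -1.0 with 73 and 39 reads.

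S100a14, an epithelial S100 protein, had the lowest ratio of the 9 genes past the level of 4. It had 4016 reads in WT and 2157 in ERAP1+/-, or 517 and 232 CPM, which is 2.23-fold lower (2.11 to 2.35) and a log2 difference of -1.15, in place 242 from the bottom of the 8013 genes. Its neighbor S100a16, a widely expressed member, had 2989 and 2171 reads, or 385 and 233 CPM, and was 1.65-fold lower (1.56 to 1.74). The difference was thus larger for S100a14. There were 1.34 S100a14 reads per S100a16 read in WT (1.28 to 1.41) and 0.994 in ERAP1+/- (0.936 to 1.06), so that the second ratio was 0.739 times the first (0.685 to 0.799).

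**Figure D2:**
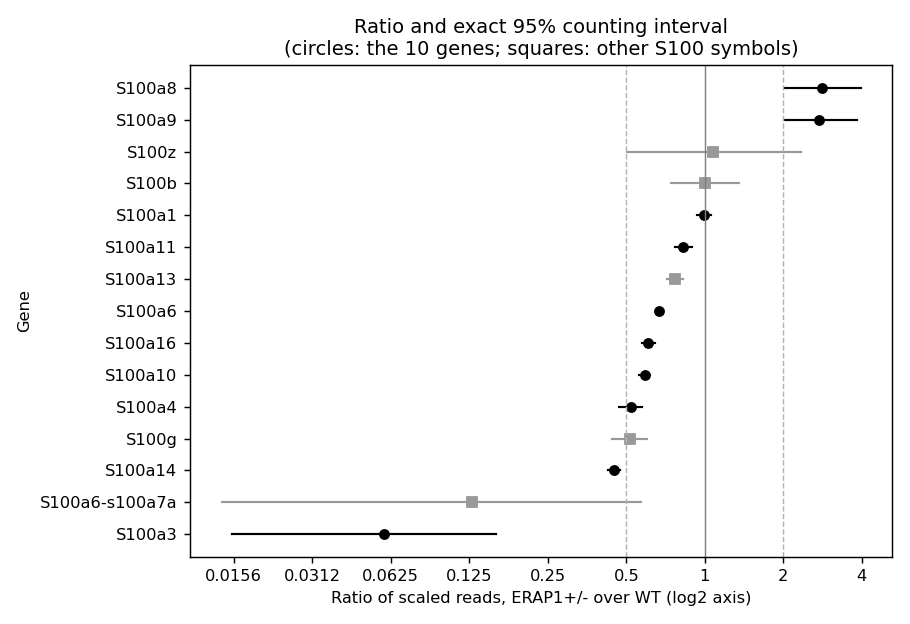
Ratio of scaled reads, ERAP1+/- over WT, on a log2 axis with exact 95% counting intervals, for the 10 genes (circles) and for other S100 symbols with at least 10 reads (squares). Dashed lines mark 2-fold. S100a8 (2.81) and S100a9 (2.75) lie above the upper line, S100a14 (0.449) and S100a3 (0.0586) below the lower one, and S100a1 (0.992) at 1.

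Colon epithelium markers gave no common direction beside S100a14. Of 14, 10 had lower and 4 higher values, with a median of -0.34, and 2 were called lower and 1 higher. The summed level was 14592 CPM in WT and 12541 CPM in ERAP1+/-. The called genes were Krt20, a keratin of surface colonocytes (5156 and 2674 reads, -1.20), Car4, a carbonic anhydrase of the same cells (15163 and 8391 reads, -1.11), and Muc2, the main mucin of goblet cells (12020 and 32939 reads, 1.19). Relative to Krt20, S100a14 had 0.779 reads per read in WT (0.747 to 0.812) and 0.807 in ERAP1+/- (0.762 to 0.854), a ratio of the 2 of 1.04 (0.965 to 1.11). Relative to Epcam, a surface protein of all epithelial cells there, it had 0.409 and 0.229, a ratio of the 2 of 0.560 (0.527 to 0.594). The gene pairs were picked after their values were seen, and Krt20 had the lowest difference of the 14 markers. Of the others, Car4 (-1.11), Car1 (-0.82), Slc26a3 (-0.60) and Aqp8 (-0.27) were not paired with S100a14. The part of surface colonocytes in the S100a14 difference was not tested. The WT library also held more of the suprabasal epidermis markers (2724 against 54.8 CPM) and basal stratified epithelium markers (615 against 304 CPM). Most of the basal sum in ERAP1+/- came from Itga6 (237 CPM in WT and 205 in ERAP1+/-) and Itgb4 (122 and 75.1 CPM). The part of epidermis and stratified epithelium in the differences of S100a14 and S100a16 was not tested either.

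S100a10 and S100a11 are partners of annexins, proteins that bind membranes in the presence of calcium. S100a10, also called p11, forms a complex with Anxa2 that links membranes to the cytoskeleton and, unlike most of the family, does not need calcium for it. S100a10 had 4319 reads in WT and 3040 in ERAP1+/-, or 556 and 327 CPM, and was 1.70-fold lower (1.62 to 1.78). S100a11 had 1431 and 1417 reads, or 184 and 152 CPM, and was 1.21-fold lower (1.12 to 1.30). The 2 neighbors thus differed in size: the number of S100a10 reads per S100a11 read was 3.02 in WT (2.84 to 3.21) and 2.15 in ERAP1+/- (2.01 to 2.29).

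Among 5 annexin genes, 4 had lower values, with a median of -0.44, and only Anxa1 was called. Anxa2 had 5740 reads in WT and 3861 in ERAP1+/- (-0.83). S100a10 kept nearly the same proportion to it, at 0.752 reads per Anxa2 read in WT (0.723 to 0.783) and 0.787 in ERAP1+/- (0.751 to 0.826), a ratio of the 2 of 1.05 whose interval (0.983 to 1.11) includes 1. Ahnak, a large scaffold protein that binds the complex of S100a10 and Anxa2, had 10118 and 6636 reads (-0.87), and the S100a10 reads per Ahnak read in ERAP1+/- were 1.07 times those in WT (1.01 to 1.14). Anxa1, the partner of S100a11, had 831 and 389 reads (-1.33). Because S100a11 differed less, the number of S100a11 reads per Anxa1 read was 1.72 in WT and 3.64 in ERAP1+/-, a ratio of the 2 of 2.11 (1.83 to 2.44).

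**Figure D3:**
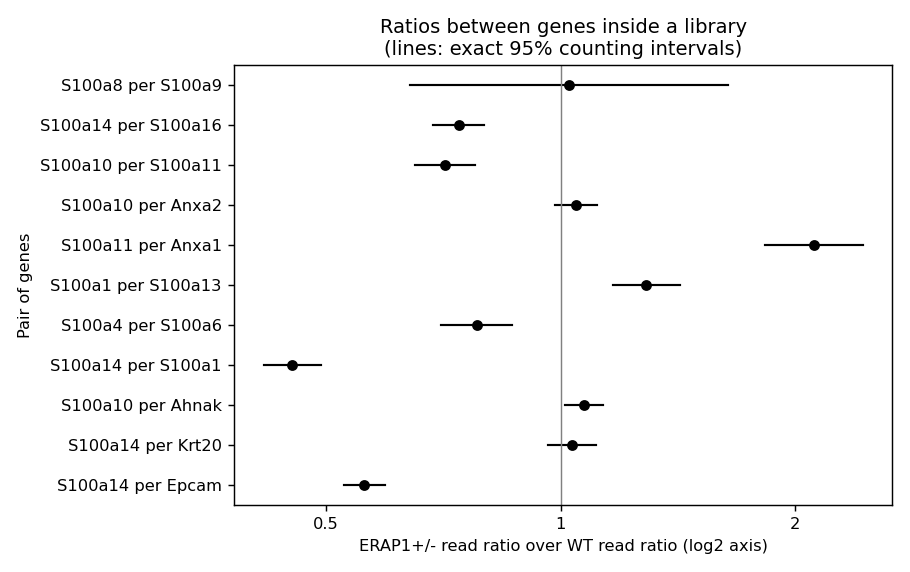
Read ratio of a gene pair in the ERAP1+/- library divided by the same ratio in the WT library, on a log2 axis with exact 95% counting intervals, for 11 pairs picked after their values were seen. S100a8 per S100a9 (1.02), S100a10 per Anxa2 (1.05) and S100a14 per Krt20 (1.04) have intervals that include 1, S100a11 per Anxa1 (2.11) lies to the right, and S100a14 per S100a1 (0.452) and per Epcam (0.560) lie to the left.

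S100a4 and S100a6 are proteins of motile, fibroblast-like and dividing cells and act on the cytoskeleton. S100a4, also known as fibroblast-specific protein, had 950 reads in WT and 591 in ERAP1+/-, or 122 and 63.5 CPM. It was 1.92-fold lower (1.73 to 2.14), just inside 2-fold, with a log2 difference of -0.93 in place 362 from the bottom. S100a6 was 1.5-fold lower (1.47 to 1.53), at -0.59. The proportion of S100a4 to S100a6 was 0.0435 in WT and 0.0339 in ERAP1+/-, which is 0.780 times as high (0.702 to 0.867).

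Fibroblast genes differed among themselves. Of the 8 listed, 6 had lower and 2 higher values, with a median of -0.14 and none called, and the summed level was 3766 CPM in WT and 3187 CPM in ERAP1+/-. Col3a1, a collagen of loose connective tissue, had 6337 and 7673 reads (0.02). Dcn, decorin, the gene of the list with the most WT reads, had 9267 and 7568 reads. Its difference of -0.55 was the lowest of the 8, and Dpt, dermatopontin, was at -0.46. The part of fibroblasts in the differences of S100a4 and S100a6 was not tested. Of 8 other intracellular partners, 5 had lower and 3 higher values, with a median of -0.11, and none of the 7 past the level was called. Myh9, the non-muscle myosin that S100a4 binds, had 2728 and 3294 reads (0.01), and Cacybp, named for its binding to S100a6, had 381 and 528 (0.21).

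Smooth muscle genes were lower as a group beside these members. All 7 had lower values, with a median of -0.91, 2 of them called, and a summed level of 8585 CPM in WT and 4419 CPM in ERAP1+/-. The called genes were Tagln (18546 and 9767 reads) and Myh11 (15691 and 8708 reads), both of the contractile apparatus. The same holds for smooth muscle, whose part in these differences was not tested.

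S100a1 is best known from heart and skeletal muscle, where it binds the calcium release channel and the calcium pump of the sarcoplasmic reticulum. Here it had 1737 reads in WT and 2062 in ERAP1+/-, or 224 and 222 CPM, a ratio of 0.992 whose interval (0.930 to 1.06) includes 1. The sign of its log2 difference (-0.01) turned with scaling by the total count (0.11). Skeletal muscle markers did not follow it. Of 16 such genes, 15 had lower values and 1 had no read, with a median of -4.98, or -4.78 with counts of 0 set at 3 reads, and of -5.13 over the 15 with at least 10 reads. The level was reached by 12, all in the WT library alone, so that their calls as lower follow from where they passed. Their summed level was 1343 CPM in WT and 22.3 CPM in ERAP1+/-. Ryr1, the calcium release channel of skeletal muscle, had 92 and 9 reads and did not reach the level, while Ryr2, the channel of heart and other tissues, had 121 and 112.

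S100a1 shares its 5′ region with S100a13, a gene outside the 10 that passed the level as well. In GENCODE their first bases lie 43 bp apart on opposite strands. S100a13 had 1513 reads in WT and 1393 in ERAP1+/-, or 195 and 150 CPM, and was 1.30-fold lower (1.21 to 1.40). The number of S100a1 reads per S100a13 read was 1.15 in WT (1.07 to 1.23) and 1.48 in ERAP1+/- (1.38 to 1.59), which is 1.29 times as high (1.17 to 1.42).

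S100a3 is a cysteine-rich member of the hair cuticle. It had 57 reads in WT and 4 in ERAP1+/-, or 7.34 and 0.430 CPM, a ratio of 0.0586 with a wide interval (0.0154 to 0.158). Its log2 difference of -2.54 was the lowest of the 10, and it was not called because its level of 3.06 in WT stayed under 4. With a limit of 10 reads in place of that level it was called, and so were S100a8, S100a9 and S100a14.

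Hair genes differed in the same direction as S100a3. All 16 hair markers had lower values, with a median of -2.25, or -1.85 with counts of 0 set at 3 reads, and of -3.89 (-3.48) over the 10 with at least 10 reads. The level was reached by 5, in the WT library alone, which sets their calls. The summed level was 208 CPM in WT and 0.215 CPM in ERAP1+/-. In the ERAP1+/- library 14 of the 16 had no read. Krt81, a keratin of the hair shaft, had 555 reads in WT and 0 in ERAP1+/-. Of 16 suprabasal epidermis markers, 15 had lower values and 1 had no read, with a median of -4.74 (-4.54 with counts of 0 set at 3 reads), and of -4.87 (-4.61) over the 15 with at least 10 reads. Their summed levels were 2724 and 54.8 CPM, and 12 of the 13 that reached the level did so in the WT library alone. For the basal layer of stratified epithelium the median of 8 genes was -2.31 (-2.29 with counts of 0 at 3 reads), with all 8 values lower, 4 of 6 past the level in the WT library alone, and summed levels of 615 and 304 CPM. Itga6 and Itgb4 made up most of the ERAP1+/- sum, with 205 and 75.1 CPM. The part of hair and skin tissue in the S100a3 difference was not tested.

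**Figure D4:**
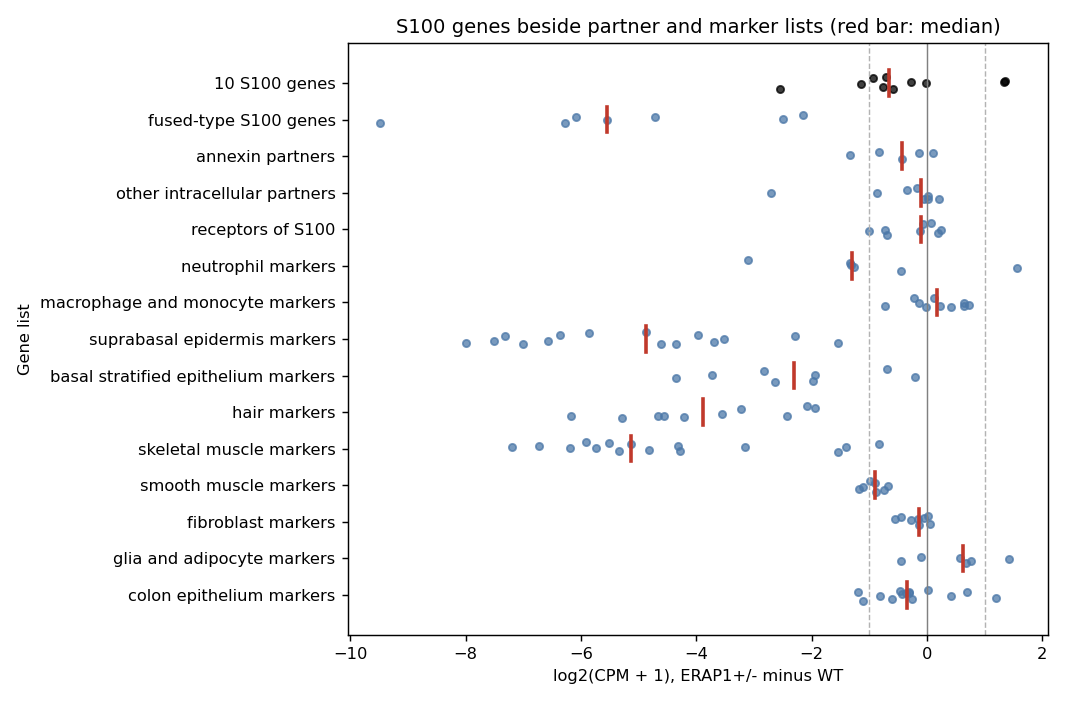
Log2 differences, ERAP1+/- minus WT, of the 10 S100 genes (black) and of the genes of each list with at least 10 reads over both libraries (blue), with the median as a red bar and dashed lines at 2-fold. The S100 genes lie from -2.54 to 1.36 around a median of -0.65, and the fused-type, suprabasal epidermis, hair and skeletal muscle lists have medians of -3.89 or lower.

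The fused-type S100 genes, whose products carry an S100 domain ahead of long repeats and build the cornified layer of skin and the inner hair sheath, differed most. All 7 had lower values, and the median was -5.55, or -5.15 with counts of 0 set at 3 reads. Their summed level was 1304 CPM in WT and 2.36 CPM in ERAP1+/-. The level was reached by 5, in the WT library alone, so that their calls as lower follow from where they passed. Flg, filaggrin, had 7952 and 4 reads, and Tchh, trichohyalin, had 507 and 14.

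These genes stand in the gap between S100a9 and S100a11. Of the 56 symbols there other than S100 genes, 48 had lower and none higher values, and 8 had no read. The median over the 56 was -3.39, or -2.99 with counts of 0 set at 3 reads, and they had 20657 reads in WT and 1876 in ERAP1+/-. The level was reached by 22, of which 21 did so in the WT library alone. Sprr2a3, a small proline-rich protein of epithelia that reached it in both, had 2490 and 1749 reads (-0.77). Beyond the gap, S100a11 was at -0.27 and S100a10 at -0.76, and before it S100a8 and S100a9, with far fewer reads, were at 1.36 and 1.33.

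**Figure D5:**
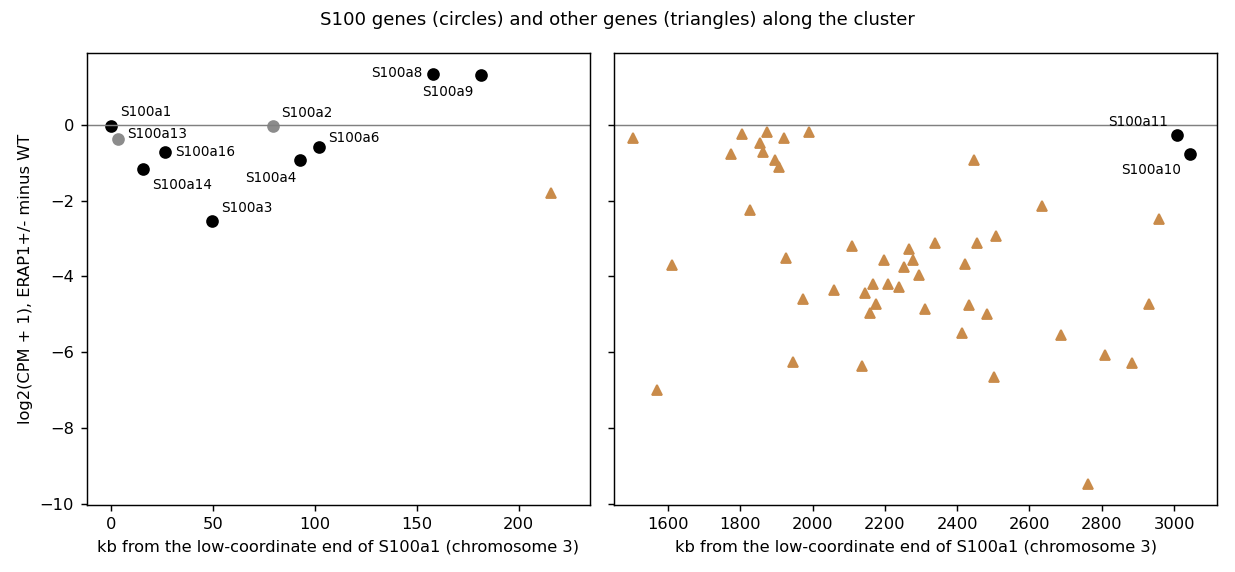
Log2 differences, ERAP1+/- minus WT, against the distance in kb from the low-coordinate end of S100a1 on chromosome 3, in 2 panels that leave out a stretch with no gene that had a read. Every gene with a read in either library is drawn, circles for S100 genes (black the 10 genes, grey others) and triangles for other genes. The triangles run from -9.48 (Flg) to just under 0, with genes of few WT reads near 0, and the S100 genes lie between -2.54 and 1.36.

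Beside S100a13, 8 further S100 symbols were in the files. S100g, the vitamin D-dependent calcium-binding protein of the gut epithelium on chromosome X, had 442 and 273 reads and was 1.94-fold lower (1.66 to 2.26), at -0.93. S100b, a marker of glia and fat cells on chromosome 10, had 86 and 103 reads, a ratio of 1.00 (0.744 to 1.35). For glia and adipocyte markers the median of the 6 genes with at least 10 reads was 0.62, where 4 were higher and 2 lower. Neither of the 2 past the level was called, and the whole list summed to 90.3 and 137 CPM. S100z had 14 and 18 reads and S100a2 had 1 in each library. S100a5, S100a7a and S100a7l2 had no read, so that levels of up to 0.386 CPM (WT) and 0.322 CPM (ERAP1+/-), worth 3 reads, remain possible. A read-through symbol that joins S100a6 and S100a7a had 13 and 2 reads, and reads of S100a6 could be split between the symbols by the counting. Of these 9 symbols with S100a13, 5 had at least 10 reads over both libraries and none was called. The list of other S100 genes, which does not hold the read-through symbol, matched 8 of them, and the median of its 4 genes with at least 10 reads was -0.19.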

How the data were processed

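RNA of mouse intestine, pooled from 3 mice per genotype, was sequenced as 1 QuantSeq 3′ library per genotype (single-end, 75 bp). The authors deposited read counts per gene symbol, without normalization, for 40879 symbols. Their methods name STAR with HTSeq and also Bowtie2 with RSEM, and the submitters' processing notes list Bowtie2, RSEM and GRCm38; which of them made the deposited counts is not stated, nor whether strand was used. Every row names a gene.

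From the counts, TMM factors (0.958 for WT, 1.04 for ERAP1+/-) came from edgeR 4.0.16 (R 4.3.3), and levels were expressed as CPM of the adjusted library size and as log2(CPM + 1). Intervals (scipy 1.17.1) are exact conditional binomial 95% intervals of a read ratio and exact intervals of the odds ratio for gene pairs; they cover counting error only, and reads without molecular identifiers are not independent molecules. Zero counts were bounded by 3 reads. No test was made, since each arm is a single library. The rule and intervals were tested on simulated data, where with biological variation added the intervals were too narrow and unchanged genes were called.

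The members, the 15 gene lists and the rule for named genes (all 10 members, list genes past 2-fold or needed to describe a list) were chosen with earlier results of these data known. List members needed 10 reads over both libraries. Alternatives were DESeq2 1.42.0 size factors, total-count scaling, TMM without mitochondrial and ribosomal RNA, a pseudocount of 0.1, other filters and a 4-fold threshold. Coordinates are from GENCODE M21 and promoters from RefSeq (GRCm38.p6). Protein sequences were not used here.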

Additional observations from a re-analysis of the deposited data

How the results depend on the processing

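No paired analysis was possible because there is a single library of each genotype, and no library could be left out. S100a8, S100a9 and S100a14 (3 genes) were called under TMM, DESeq2 size factors, total-count scaling, TMM without mitochondrial and ribosomal RNA, and a pseudocount of 0.1. With no filter on low values or at least 10 reads the count was 4, with S100a3 added. With a log2 level of at least 6 it was 1 (S100a14), and with a 4-fold threshold it was 0, since no member past the level differed that much. Over all genes the count was 428, and 1434 with no filter, 1390 with at least 10 reads, 160 with a level of at least 6 and 160 with a 4-fold threshold. Scaling by the total count raised the median difference of all genes by 0.12 on the log2 scale and gave 166 higher and 248 lower genes in place of 111 and 317. S100a1 reversed under it (0.11 against -0.01), and S100a14 stayed past 2-fold at -1.03. A pseudocount of 0.1 moved S100a3 to -3.81. Of 40 values of single members under these alternatives, 33 were classed as the same, 6 as moved in the same direction and 1 as reversed. For every member but S100a3, the values classed as the same lay within the counting interval of the ratio. The log2(CPM + 1) differences of S100a3 depend on the pseudocount, so that they cannot be set against that interval. Of 60 medians of lists, 51 stayed and 9 moved. Depth limits S100a3, S100a8 and S100a9, whose intervals are the widest of the 10.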
